A study of Arabidopsis thaliana with 45 samples.

Results

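Polysomal RNA, the transcripts carrying several ribosomes, was set against total RNA in imbibed non-dormant seeds of Arabidopsis thaliana after 6 h in water. The arrays were chosen by their titles, 3 of polysomal RNA against 3 of total RNA, out of 45 arrays in 16 groups. The seeds were of the line NILDOG1-Cvi, which has Cvi DNA at the DOG1 region and is otherwise Landsberg erecta; all groups used here shared this genotype. The same polysomal against total comparison in dormant seeds (water, 6 h), in non-dormant seeds imbibed in cordycepin (6 h), an adenosine analogue used to block transcription, and in non-dormant seeds after 24 h in water served to show where non-dormant seeds at 6 h differed. Each of those comparisons had 3 polysomal and 3 total RNA arrays of its own. Seeds of 8 plants were bulked for each replicate, according to the labels, which do not say how the non-dormant state was obtained. The labels also conflict: their treatment text speaks of dry seeds and their molecule field of total RNA for all arrays, and the titles were followed.

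A ribosome that starts on an mRNA leaves room for the next, so an mRNA in active translation sits in polysomes. An mRNA stored in particles or held in the nucleus stays out of them. Dry seeds hold stored mRNAs from maturation, and imbibition restarts translation on a part of them. Seed germination is known to need translation from its first hours, so the difference between polysomal and total RNA is used in this field to ask which stored mRNAs are engaged.

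Values are log2 expression levels of 27827 probe sets that carry locus codes as names, and a difference is polysomal minus total on the log2 scale. Because the arrays were scaled to each other, a difference is relative to the average transcript and says nothing about how much RNA was in polysomes. Arrays of one group correlated at 0.975 to 0.983 (polysomal) and 0.979 to 0.982 (total) across probe sets, and polysomal with total arrays at 0.942 to 0.951. The polysomal arrays were more widely spread: their lower quartiles were 2.39 to 2.62 and their upper quartiles 6.51 to 6.54, against 2.62 to 2.72 and 6.29 to 6.35 in total RNA. The number of arrays limits the precision, and the median standard error of a difference was 0.26. The labelled tissue was borne out by 6 seed markers (storage proteins and oleosins), whose summed level was 69.5 to 70.5 in polysomal and 71.4 to 71.7 in total arrays, with the lowest of them, OLEO2, at a mean of 11.09 in polysomal and 11.03 in total RNA. The 4 endosperm markers summed to 19.7 to 20.9 in polysomal and 19.9 to 20.5 in total arrays, and the 6 seed coat markers to 17.50 to 18.89 in polysomal and 18.06 to 20.40 in total arrays. In whole seeds, fewer cells of a type and less RNA per cell cannot be told apart.

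Large differences were mostly losses from polysomes, less so among brighter transcripts, while gains were many and small. Of all probe sets, 3686 (13.2%) were higher and 3240 (11.6%) lower in polysomal than in total RNA by the limma test (adjusted p under 0.05), 24.9% in all. At least 2-fold differences were called for 672 higher (2.41%) and 2039 lower (7.33%) probe sets. Among the 13914 probe sets at or above the median level, 527 were higher and 702 lower by at least 2-fold. A loss of at least 2 on the log2 scale occurred in 448 probe sets, and a gain of that size in 3. The largest loss was -6.63 (AT2G11778, not annotated with a symbol) and the largest gain 2.304 (AT5G15220, likewise). The polysomal and total arrays did not overlap for 11041 probe sets (39.7%), of which 6561 were among those called.

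Under the deposited scaling the direction of the difference moved with the level of the transcript. In the tenth of probe sets with a mean level of 3.31 to 4.01, 30.7% were lower and 5.53% higher, with a median difference of -0.36. In the tenth at 6.88 to 8.05, 6.04% were lower and 26.2% higher, with a median of 0.26. With quantile normalization over all arrays these medians were -0.02 and 0.05. Among the 13914 probe sets at or above the median level, here called the brighter ones, 22.0% were higher and 9.39% lower, and the median difference was 0.23. That median was 0.10 with quantile normalization and 0.08 with cyclic loess. Among nuclear protein-coding genes of the brighter probe sets, the tenth with the shortest gene span (up to 1264 bases) had 165 of 1337 higher and 243 lower, and the tenth with the longest (from 4840 bases) 349 of 1337 higher and 47 lower. Whether span itself plays a part was not tested.

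**Figure D1:**
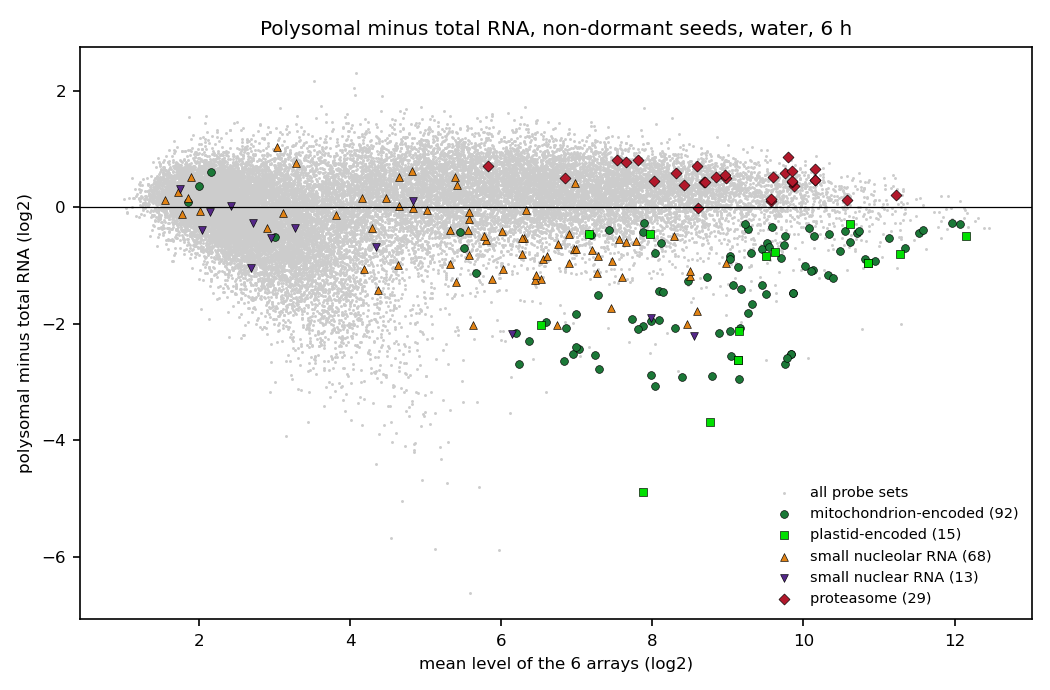
Difference of polysomal minus total RNA (log2, vertical axis) against the mean level of the 6 arrays (log2, horizontal axis), 1 grey point for each of 27827 probe sets, with 5 groups coloured. Organelle-encoded probe sets and small nucleolar and nuclear RNAs spread downwards to -4.89, while 28 of the 29 proteasome genes sit above 0.

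The largest gain among genes with a symbol and a polysomal level of at least 6 was that of GLTP1, which encodes a glycolipid transfer protein. Its levels were 6.80, 7.49 and 7.21 in polysomal RNA, against 5.27, 5.72 and 5.37 in total RNA. The difference was 1.72 ± 0.25 (SE, adjusted p = 3.16e-06), or 3.29-fold. The 15 largest gains and 15 largest losses named were picked among called probe sets with non-overlapping groups, so that separation is no further result. The embryo-defective gene emb1187 had 6.95, 6.93 and 6.79 in polysomal RNA, against 5.26, 5.21 and 5.37 in total RNA, a difference of 1.61 ± 0.17 (adjusted p = 4.72e-09). All 3 polysomal arrays of emb1187 were within 0.2 of each other, as were the total ones, and its standard error was the lowest of the 15 largest named gains. SYP32, a Golgi syntaxin that helps vesicles fuse, had 6.86, 6.22 and 6.65 in polysomal RNA, against 4.89, 5.41 and 4.76 in total RNA. The difference of SYP32 was 1.56 ± 0.22 (adjusted p = 1.83e-06).

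AtSec20, a SNARE protein of the endoplasmic reticulum, differed by 1.52 ± 0.29, VAMP712, another SNARE, by 1.37 ± 0.25, and VPS25, a subunit of the ESCRT-II complex that sorts cargo into endosomes, by 1.35 ± 0.25. FRS12, a transcription factor related to FAR1, differed by 1.44 ± 0.19, and CID10, which carries a domain that binds poly(A)-binding protein, by 1.41 ± 0.25. FTRA2, a subunit of ferredoxin-thioredoxin reductase, AUG7, a subunit of the augmin complex of microtubule branching, c-NAD-MDH2, a cytosolic malate dehydrogenase, and SDH8, a subunit of succinate dehydrogenase, differed by 1.34 to 1.39. UXS3, which makes UDP-xylose for the cell wall, and VIP3, a protein of the Paf1 and SKI complexes of transcription and RNA decay, each differed by 1.34. TPR5, a tetratricopeptide repeat gene, differed by 1.46 ± 0.33, with total arrays of 5.08, 6.35 and 6.25, the first of which lies apart. All 15 genes, picked as the largest gains in these same arrays, were called in each fit that left out 1 of the 6 arrays. They were also called under both other normalizations.

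EXT10, an extensin of the cell wall, had levels of 1.69, 2.17 and 1.23 in polysomal RNA, against 7.63, 7.35 and 7.14 in total RNA. The polysomal values lay under the lower quartile of every polysomal array, and the difference was -5.68 ± 0.29 (adjusted p = 1.7e-16). The files give no floor for such dim values, so no fold is given. AGL51, a MADS-box transcription factor gene, had 2.99, 2.37 and 2.48 in polysomal RNA, against 7.37, 7.29 and 7.24 in total RNA (-4.69 ± 0.48). AGL78, of the same family, had 2.51, 2.68 and 2.85 in polysomal RNA, against 6.99, 7.30 and 6.04 in total RNA (-4.10 ± 0.35). Polysomal and total arrays of both genes were far apart.

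Other large losses among named genes were spread over cell wall, transport and regulatory genes. OFP10, of the ovate family of transcriptional repressors, differed by -3.87 ± 0.33, and GRP17, an oleosin-domain protein known from the pollen coat, by -3.54 ± 0.29. The fasciclin-like arabinogalactan protein gene FLA2 had 2.95, 3.18 and 3.38 in polysomal RNA, against 6.15, 6.58 and 6.18 in total RNA (-3.13 ± 0.31, adjusted p = 1.11e-09). AMT1;4, an ammonium transporter, differed by -3.11 ± 0.40, MYB120, a transcription factor known from pollen tubes, by -3.09 ± 0.28, and PME1 (AT4G12390), named in the reference as a pectin methylesterase inhibitor, by -2.92 ± 0.32. PUP4, a purine permease, differed by -2.87 ± 0.29, CYP96A3, a cytochrome P450, by -2.56 ± 0.31, and ENODL2, an early nodulin-like protein, by -2.25 ± 0.21. Each of the 15 largest named losses was called in each fit without 1 array.

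**Figure D2:**
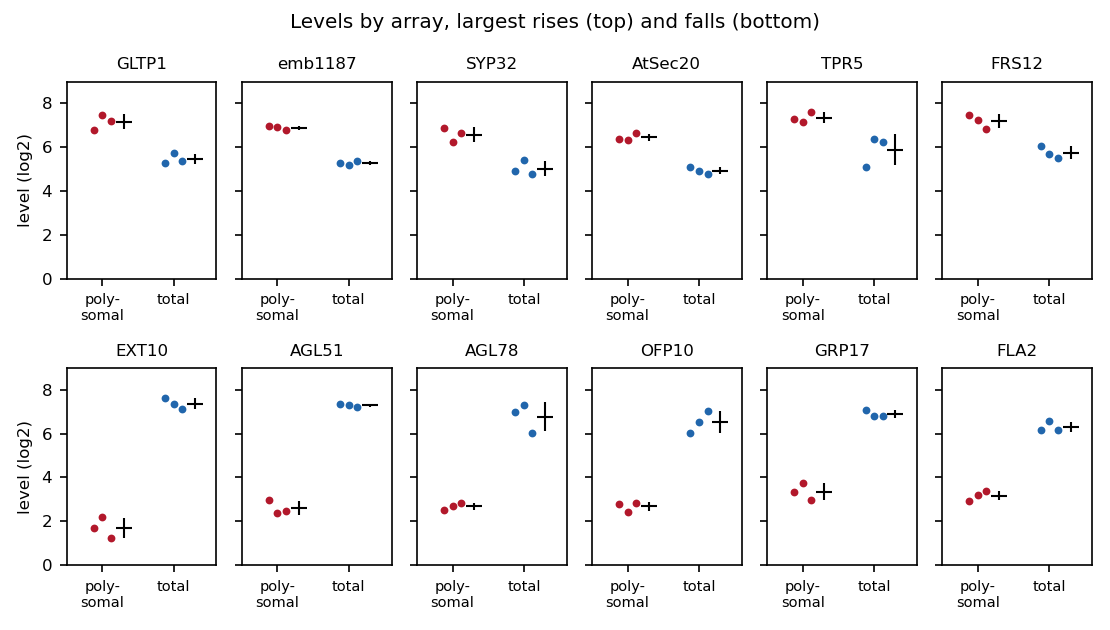
Level (log2) in each array for the 6 largest gains (top) and 6 largest losses (bottom) among genes with a symbol, polysomal arrays on the left of each panel and total arrays on the right, with the mean and SD as a bar (n = 3 each). In the bottom row the polysomal arrays lie between 1.23 and 3.76 and the total arrays between 6.04 and 7.63.

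Most transcripts of the organelle genomes were lower in polysomal RNA. Mitochondria and plastids have their own ribosomes, and their transcripts also largely lack the poly(A) tails of nuclear mRNA. Of 92 mitochondrion-encoded probe sets 69 (75%) were lower and 0 higher, with a median difference of -1.15, against 11.6% lower and a median of 0.09 over all probe sets. For single polysomal arrays, set against the mean of the total arrays, the median of this list ranged from -1.24 to -1.07. ATMG00860 had 6.31, 6.95 and 6.23 in polysomal RNA, against 9.60, 9.56 and 9.52 in total RNA, and ATMG01250 had 7.81, 7.77 and 7.43 in polysomal RNA, against 10.60, 10.59 and 10.68 in total RNA. Their differences of -3.06 ± 0.21 and -2.95 ± 0.17 (adjusted p = 2.26e-13 and 2.48e-15) were many times the spread of their arrays. The members were far from uniform, and the list reached from -3.06 to 0.60.

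Of 15 plastid-encoded probe sets 12 were lower and 0 higher (median -0.95). ATCG00250 had 5.46, 5.84 and 5.01 in polysomal RNA, against 10.13, 10.42 and 10.44 in total RNA, a difference of -4.89 ± 0.33 (adjusted p = 2.32e-13). ATCG00240 differed by -3.68 ± 0.33. The reference tables pair these organelle codes with no symbol, so the products are not named. Probe sets here are not all independent: ATCG00990 and ATCG01140 hold identical values (-2.63 ± 0.20 each), as do 37 of the 92 mitochondrial and 12 of the 15 plastid probe sets with some other probe set.

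A block of chromosome 2 loci behaved like the mitochondrial list. Chromosome 2 of Arabidopsis is known to carry a large copy of the mitochondrial genome near its centromere, and 33 of 97 probe sets of neighbouring loci there hold values identical to those of a mitochondrial locus. Of the 97, 79 were lower and 1 higher (median -1.08). AT2G07806, for example, had 6.92, 7.01 and 6.87 in polysomal RNA, against 9.76, 9.72 and 9.75 in total RNA (-2.81 ± 0.16). Whether such signals come from the nuclear or the organelle copy cannot be told apart on these arrays. Of the 339 probe sets that were at least 2-fold lower with a total RNA level of at least 6, 51 were mitochondrial, 6 plastid, 54 from this block, and 228 others.

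Small nucleolar RNAs guide the modification of ribosomal RNA, and small nuclear RNAs form the core of the spliceosome, so neither is translated. Of 68 small nucleolar RNA probe sets 22 (32.4%) were lower and 1 higher (median -0.55). Of 13 small nuclear RNA probe sets 5 (38.5%) were lower and 0 higher (median -0.39). Of all probe sets 11.6% were lower, and of the brighter ones, to which 57 of the 68 small nucleolar RNAs belong, 9.39%. Without polysomal replicate 1 or total replicate 1, 3 small nuclear RNAs were lower, as with quantile normalization and with cyclic loess. The spliceosomal RNA U1.5 had 7.45, 7.88 and 7.01 in polysomal RNA, against 10.01, 9.78 and 9.20 in total RNA (-2.21 ± 0.39, adjusted p = 8.38e-05). U6acat and U12, RNAs of the minor spliceosome, had 5.17, 5.13 and 4.85 in polysomal RNA against 7.39, 7.18 and 7.13 in total RNA, and 6.92, 7.61 and 6.55 in polysomal RNA against 9.34, 8.60 and 8.86 in total RNA. All 3 spliceosomal RNAs were apart in the same direction. The small nucleolar RNA SNOR30 had 7.50, 8.03 and 7.54 in polysomal RNA, against 9.44, 9.46 and 9.54 in total RNA (-1.79 ± 0.28). The median total RNA level was 6.29 for the small nucleolar and 3.21 for the small nuclear RNAs. In the tenth of probe sets with a mean level of 2.83 to 3.31, 22.7% were lower, with a median of -0.28.

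Among 61 transfer RNA probe sets 16 (26.2%) were lower and 1 higher. Without the chromosome 2 block 6 of 48 (12.5%) were lower (median -0.18), a share near the 11.6% of all probe sets. Among 222 long non-coding RNAs 26 (11.7%) were lower and 18 (8.11%) higher, with a median of 0.03, close to that of all probe sets. The non-coding transcript AT3G22121 was one of those lower, at 6.64, 6.85 and 6.10 in polysomal RNA, against 8.74, 9.18 and 8.61 in total RNA (-2.31 ± 0.24, adjusted p = 5.12e-09). AT1G64618, of the class annotated as other non-coding RNA, differed by -3.36 ± 0.30. In that class 18 of 165 (10.9%) were lower and 12 (7.27%) higher, beside 11.6% and 13.2% of all probe sets. The higher ones numbered 3 to 7 without any 1 array but polysomal replicate 3. Of 174 microRNA precursor loci 8 (4.6%) were lower and 9 (5.17%) higher, both shares under those of all probe sets. The lower ones numbered 5 without polysomal replicate 1 or total replicate 3. The higher ones numbered 15 without polysomal replicate 3 and 5 without total replicate 2. These loci were dim, with a median total RNA level of 1.98. MIR844 had 5.13, 4.78 and 4.63 in polysomal RNA, against 6.50, 5.78 and 6.70 in total RNA (-1.48 ± 0.39).

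Of 36 cytosolic translation factors 13 (36.1%) were higher and 0 lower, with a median difference of 0.35, beside 22.0% and 0.23 among the brighter probe sets, to which 35 of them belong. Poly(A)-binding proteins circularise the mRNA and recruit initiation factors. PAB8 had 10.38, 10.35 and 9.997 in polysomal RNA, against 9.51, 9.43 and 9.35 in total RNA (0.81 ± 0.14, adjusted p = 5.58e-05), and PAB4 had 10.17, 10.46 and 9.93 in polysomal RNA, against 9.43, 9.34 and 9.38 in total RNA (0.80 ± 0.16). For each of them every polysomal array was above every total array. The cap-binding protein gene EIF4E differed by 0.79 ± 0.21 and AT2G18110, which the reference gives no symbol, by 1.56 ± 0.29. Of 7 genes of translation signalling, S6K2, a kinase of ribosomal protein S6, differed by 0.53 ± 0.19 (adjusted p = 0.0354), a call that 4 of the 6 fits without 1 array did not make.

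Of 46 ribosomal protein genes found by symbol, 10 were higher and 0 lower (median 0.29), a share of 21.7% beside 22.0% and a median of 0.23 among the brighter probe sets, to which 45 of them belong. This list still holds a few organelle proteins whose symbols do not say so. Without polysomal replicate 3, 6 were higher. rps15ab, which encodes a protein of the small subunit, had 5.09, 5.53 and 5.49 in polysomal RNA, against 3.51, 3.17 and 3.71 in total RNA (1.91 ± 0.32, adjusted p = 3.91e-05). RPS15 differed by 1.00 ± 0.25. Of 20 named as plastid or mitochondrial ribosomal proteins, made in the cytosol and then imported, 5 were higher and 0 lower (median 0.40). That count was 1 to 3 without polysomal replicate 2 or 3 or total replicate 1 or 3. RPL15 stood at 7.17, 7.49 and 7.06 in polysomal RNA against 6.42, 6.62 and 6.14 in total RNA (0.85 ± 0.18). Among 16 ribosome assembly factors 3 (18.8%) were higher and 1 lower, and 1 was higher with quantile normalization, with cyclic loess or with only the 6 arrays in the fit. The lower one, NAP57, the pseudouridine synthase of small nucleolar ribonucleoproteins, had 9.61, 9.83 and 9.62 in polysomal RNA, against 10.21, 10.42 and 10.22 in total RNA (-0.60 ± 0.15, adjusted p = 0.00324). TOZ, a nucleolar protein of ribosome assembly, differed the other way, by 0.57 ± 0.15, but was not called under any of those 3 settings (adjusted p = 0.0624, 0.0594 and 0.0738). NAP57 kept its call under both normalizations and lost it with only the 6 arrays in the fit (limma, adjusted p = 0.055).

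Of 24 splicing factors of the SR and related families 12 were higher and 0 lower, with a median of 0.48, beside 22.0% higher and a median of 0.23 among the brighter probe sets, to which all 24 belong, as do the 29 proteasome genes. PTB1, a polypyrimidine tract-binding protein that regulates splicing, had 7.69, 8.26 and 7.403 in polysomal RNA, against 6.71, 6.55 and 6.37 in total RNA (1.24 ± 0.25, adjusted p = 0.000372). Its paralogue PTB2 had 9.55, 9.59 and 9.38 in polysomal RNA, against 8.86, 8.65 and 8.52 in total RNA (0.83 ± 0.17), and SCL33, an SR protein, differed by 0.73 ± 0.18. The polysomal arrays of these genes lay above the total arrays without overlap.

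The proteasome degrades ubiquitin-tagged proteins. Of 29 of its subunit genes 20 (69.0%) were higher and 0 lower, with a median of 0.50, and 28 of the 29 differences were above 0. ATS9, a lid subunit also called RPN6, had 10.35, 10.55 and 9.79 in polysomal RNA, against 9.54, 9.39 and 9.19 in total RNA (0.86 ± 0.21, adjusted p = 0.00268). RPN8A, of the lid as well, had 8.05, 7.65 and 8.10 in polysomal RNA, against 6.74, 7.42 and 7.19 in total RNA (0.81 ± 0.17). PAB1 (AT1G16470) and PBB1 are subunits of the core particle, with differences of 0.80 ± 0.24 and 0.77 ± 0.20. These counts depended on the scaling, the arrays in the fit and single libraries: without polysomal replicate 2, 13 proteasome genes and 5 splicing factors were called higher, and without total replicate 3, 7 splicing factors. Proteasome genes called higher numbered 10 with quantile normalization, 11 with cyclic loess and 4 when only the 6 arrays entered the fit, and splicing factors 8, 8 and 3, while the list medians stayed above 0 (0.39 and 0.38 for the proteasome and 0.32 for the splicing factors under both normalizations). Of 9 mRNA decay genes 0 were called in the limma test, and AHG2, a poly(A) ribonuclease, had a difference of 0.48 ± 0.20 (adjusted p = 0.0738).

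**Figure D3:**
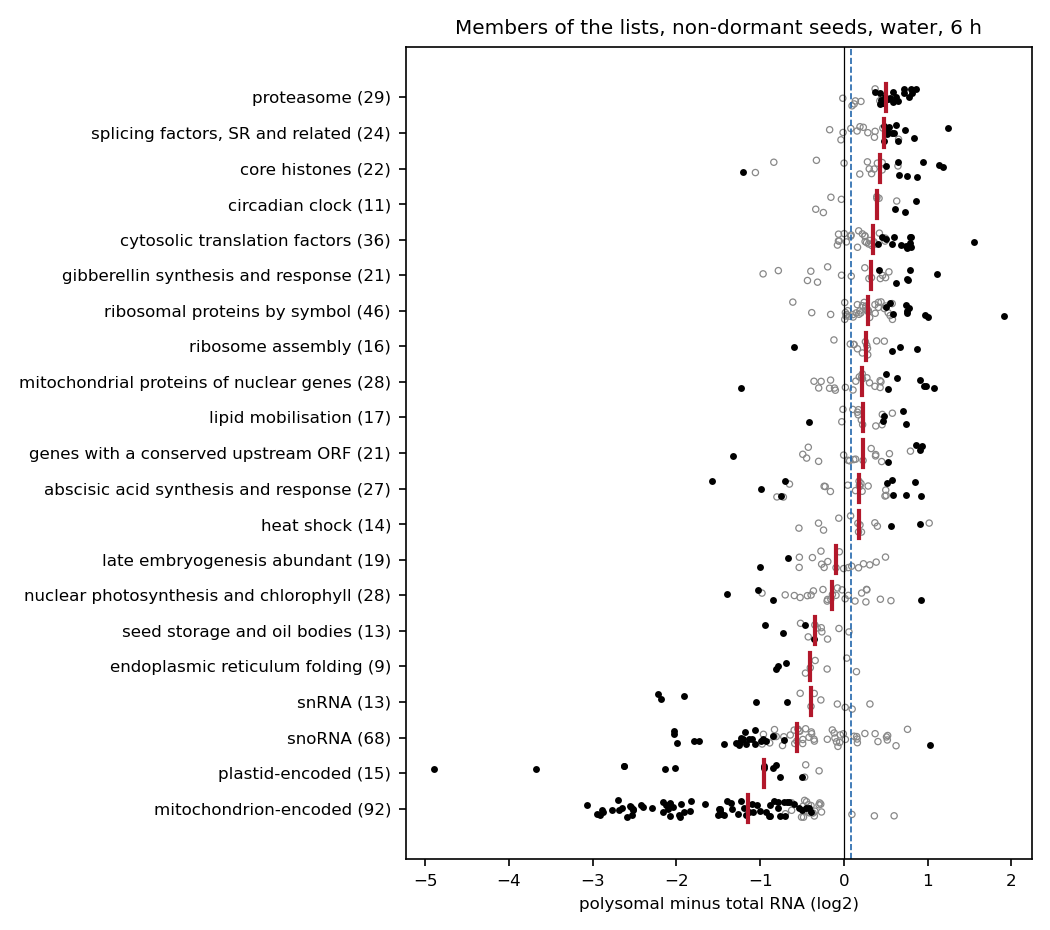
Difference of polysomal minus total RNA (log2, horizontal axis) of each member of 21 gene lists, with the number of members in brackets. Filled points passed the limma test, open points did not, red bars are list medians and the dashed line is the median of all probe sets (0.09). Proteasome and splicing factor genes lie mostly to the right, from medians of 0.50 and 0.48, and organelle-encoded genes to the left, at -0.95 and -1.15.

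Of 22 core histone genes, whose proteins package DNA, 8 (36.4%) were higher and 1 lower, with a median of 0.43. Of the brighter probe sets, to which 18 of them belong, 22.0% were higher, with a median of 0.23. Without total replicate 3, 3 were higher, without polysomal replicate 1, 4, and without polysomal replicate 3 or total replicate 1, 5, and 4 with cyclic loess. HTA6, a histone H2A, had 7.20, 7.09 and 7.60 in polysomal RNA, against 6.43, 6.18 and 6.46 in total RNA (0.94 ± 0.23, adjusted p = 0.00322). HTR11, a histone H3, differed by 1.19 ± 0.29 and HTB9, a histone H2B, by 1.14 ± 0.33. The lower one, HTA11, an H2A variant, had 3.23, 3.13 and 3.04 in polysomal RNA, against 3.77, 4.45 and 4.78 in total RNA (-1.20 ± 0.35). That call was lost without total RNA replicate 3 and with quantile normalization.

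Of 9 protein folding genes of the endoplasmic reticulum 3 (33.3%) were lower and 0 higher (median -0.40). Of all probe sets 11.6% were lower, and of the brighter ones, to which 7 of the 9 belong, 9.39%. Calnexin CNX1, a chaperone of newly made glycoproteins, had 6.28, 6.93 and 6.40 in polysomal RNA, against 7.32, 7.32 and 7.32 in total RNA (-0.78 ± 0.19, adjusted p = 0.00251). ATERDJ3A, a DnaJ co-chaperone, differed by -0.81 ± 0.25 and PDIL1-2, a protein disulfide isomerase, by -0.69 ± 0.20, both with groups apart. ATERDJ3A was no longer called without polysomal replicate 2 or total replicate 3, nor PDIL1-2 without polysomal replicate 3.

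Messages of seed maturation are abundant in dry seeds. Of 13 storage protein and oil body genes 4 (30.8%) were lower and 0 higher (median -0.35), and 12 of the 13 differences were below 0. All 13 belong to the brighter probe sets, of which 9.39% were lower. PAP85, a vicilin-like storage protein, had 11.21, 11.29 and 11.27 in polysomal RNA, against 11.98 ± 0.022 in total RNA (SD, n = 3). Its arrays agreed within 0.1 in each group, and the difference was -0.73 ± 0.12 (adjusted p = 3.45e-05). The 2S albumin genes SESA1 and SESA2 differed by -0.46 ± 0.14 and -0.94 ± 0.30, and the cruciferin CRU3 had 12.21, 12.32 and 12.09 in polysomal RNA against 12.58, 12.53 and 12.58 in total RNA (-0.35 ± 0.12, adjusted p = 0.0316). The CRU3 call was made in 1 of the 6 fits without 1 array and was lost with quantile normalization (-0.09, adjusted p = 0.62) and with cyclic loess (-0.19, adjusted p = 0.241). The list median was -0.18 with quantile normalization. PAP85 was the only 1 of the 4 called in every fit without 1 array, and it stood alone without polysomal replicate 1, while 2 were called without polysomal replicate 2, total replicate 1 or total replicate 2. Of 19 late embryogenesis abundant genes, which protect the dry seed, 2 (10.5%) were lower and 0 higher (median -0.09), a share near the 11.6% of all probe sets, and 1 was lower without polysomal replicate 1 or total replicate 1 or with quantile normalization, under which 2 were higher. ECP63 had 10.68, 10.53 and 10.81 in polysomal RNA, against 11.42, 11.29 and 11.30 in total RNA (-0.66 ± 0.16).

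Of 14 heat shock genes 2 (14.3%, beside 13.2% of all probe sets) were higher and 0 lower (median 0.18), and 0 were higher without polysomal replicate 1, without total replicate 3 or with only the 6 arrays in the fit. HSP23.6-MITO, a mitochondrial small heat shock protein, differed by 0.56 ± 0.19 (adjusted p = 0.0292), a call lost in 3 of the 6 fits without 1 array.

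Among nuclear genes for mitochondrial proteins 7 of 28 (25%) were higher and 1 lower (median 0.22), close to the 22.0% and 0.23 of the brighter probe sets, to which 26 of them belong. Without polysomal replicate 1, 4 were higher, and without polysomal replicate 2, 3. The outer membrane import receptor TOM20-4 had 8.08, 8.23 and 8.41 in polysomal RNA, against 7.12, 7.19 and 7.20 in total RNA (1.07 ± 0.19, adjusted p = 8.47e-05), and TOM20-3 had 7.51, 7.12 and 7.27 in polysomal RNA, against 6.11, 6.63 and 6.27 in total RNA (0.96 ± 0.20). Every polysomal array of both receptors was above every total array. AOX1A, the alternative oxidase, differed by 0.98 ± 0.30, and the inner membrane translocase gene TIM17-1, dim in both RNA types, by -1.23 ± 0.27.

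Nuclear photosynthesis and chlorophyll genes were dim at this stage, with a median total RNA level of 3.62. Of 28, 1 (3.57%) was higher and 3 (10.7%) were lower, beside 13.2% and 11.6% of all probe sets. The list median was -0.15, which turned to 0.02 with quantile normalization. The antenna protein gene CAB2 had 1.93, 2.69 and 2.01 in polysomal RNA, against 3.18, 3.89 and 3.74 in total RNA (-1.40 ± 0.33). LHCA4, an antenna protein of photosystem I, differed the other way, with 5.08, 5.73 and 5.15 in polysomal RNA against 4.35, 4.48 and 4.34 in total RNA (0.93 ± 0.26). Genes that mobilise seed oil were higher in 4 of 17 cases and lower in 1 (median 0.22), beside 22.0% and 0.23 among the brighter probe sets, to which 16 of them belong. The lower call was lost in 5 of the 6 fits without 1 array, and there were 8 higher without polysomal replicate 3 and 2 without polysomal replicate 1 or 2 or total replicate 3. The acyl-CoA oxidases ACX4 and ACX1, of peroxisomal beta-oxidation, differed by 0.74 ± 0.17 and 0.71 ± 0.17, with polysomal arrays of 8.89, 9.35 and 8.61 for ACX4 against total arrays of 8.21, 8.23 and 8.19. Of 16 genes of cell wall loosening, 1 was lower and 0 higher: the endo-beta-mannanase MAN5, at 5.31, 5.46 and 5.31 in polysomal RNA against 6.25, 6.16 and 6.12 in total RNA (-0.82 ± 0.20).

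Gibberellin promotes germination, and 6 of 21 genes of its synthesis and response were higher in polysomal RNA, with 0 lower (median 0.33). That is 28.6%, beside 22.0% and a median of 0.23 among the brighter probe sets, to which 15 of them belong. The count was 2 without polysomal replicate 2 and 3 without total replicate 1. The receptor gene GID1C had 7.42, 7.54 and 7.17 in polysomal RNA, against 6.39, 6.29 and 6.13 in total RNA (1.11 ± 0.18, adjusted p = 3.13e-05). SLY1, the F-box protein that directs DELLA repressors to the proteasome, had 7.67, 8.001 and 8.17 in polysomal RNA, against 7.03, 7.35 and 7.16 in total RNA (0.77 ± 0.22). The groups of both genes were apart. GA20OX2 and GA2OX6, a gibberellin-making and a gibberellin-inactivating oxidase, were dim in both RNA types and differed by 0.76 ± 0.27 and 0.79 ± 0.22.

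Abscisic acid maintains dormancy. Of 27 genes of its synthesis and response, 6 (22.2%) were higher and 4 (14.8%) lower (median 0.19, -0.01 with cyclic loess). Of the brighter probe sets, to which 23 of them belong, 22.0% were higher and 9.39% lower. Without polysomal replicate 2, 2 of the 27 were lower. NCED3, which makes the precursor of abscisic acid, had 3.39, 3.69 and 2.90 in polysomal RNA, against 4.42, 5.40 and 4.87 in total RNA (-1.57 ± 0.30, adjusted p = 0.000227). CYP707A1, which breaks the hormone down, differed by -0.99 ± 0.28. On the other side, the kinase gene SNRK2.2 had 6.40, 6.65 and 6.60 in polysomal RNA, against 5.73, 5.55 and 5.60 in total RNA (0.92 ± 0.17, adjusted p = 0.000173), and ABA3, a cofactor enzyme of the last synthesis step, differed by 0.85 ± 0.21. Of 17 tryptophan and auxin synthesis genes 4 were higher and 2 lower. The shares over all probe sets were 13.2% higher and 11.6% lower. Among the brighter ones, to which 11 of the 17 belong, they were 22.0% and 9.39%. The 4 higher genes became 1 without polysomal replicate 2 and 2 without total replicate 1 or 3. The auxin-making YUC2 had 2.52, 2.63 and 2.61 in polysomal RNA, against 4.45, 4.16 and 4.31 in total RNA (-1.72 ± 0.22, adjusted p = 4.32e-07), and tryptophan synthase TSB2 had 9.24, 9.52 and 8.89 in polysomal RNA, against 8.46, 8.49 and 8.41 in total RNA (0.76 ± 0.17).

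DOG1 itself, the dormancy gene at which the line was made, had 5.04, 5.75 and 5.26 in polysomal RNA, against 5.07, 4.90 and 5.88 in total RNA. The groups overlapped, and the difference was 0.07 ± 0.27 (adjusted p = 0.88). None of the 7 dormancy regulators was called by limma. SPT, a transcription factor that acts on germination, had 6.64, 6.11 and 6.42 in polysomal RNA against 5.34, 5.85 and 5.64 in total RNA (0.78 ± 0.30, adjusted p = 0.0514), and MFT, listed in the reference as E12A11, had 6.82, 7.14 and 7.43 in polysomal RNA against 6.61, 6.72 and 6.95 in total RNA (0.37 ± 0.20, adjusted p = 0.171).

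Of 11 clock genes 3 (27.3%) were higher and 0 lower (median 0.39). All 11 belong to the brighter probe sets, of which 22.0% were higher, with a median of 0.23. PRR9, a repressor of the morning loop, had 6.95, 6.26 and 6.91 in polysomal RNA, against 5.92, 5.74 and 5.87 in total RNA (0.87 ± 0.30), and RVE8, an activator of evening genes, had 7.15, 6.84 and 7.45 in polysomal RNA, against 6.45, 6.46 and 6.31 in total RNA (0.74 ± 0.20). GI overlapped between the groups (0.61 ± 0.23). With quantile normalization 0 of the 11 were called, and without polysomal replicate 1 or 3 or total replicate 3, 1 was. Of 9 rapid stress genes 1 (11.1%, beside 13.2% of all probe sets) was higher, RHL41 (ZAT12), a zinc finger regulator, by 0.76 ± 0.25. That call was made in 3 of the 6 fits without 1 array and was lost with quantile normalization (adjusted p = 0.111) and cyclic loess (adjusted p = 0.102).

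A conserved upstream reading frame can hold ribosomes back from the main one. Of 21 genes with such a frame 4 (19.0%) were higher and 1 (4.76%) lower (median 0.23). Of all probe sets 13.2% were higher and 11.6% lower, and of the brighter ones, to which 12 of the 21 belong, 22.0% were higher. Among the 21, 11 share their values with another probe set. Without total replicate 3, 2 were higher. HSF4, a heat shock factor, had 7.15, 7.51 and 6.81 in polysomal RNA, against 6.22, 6.24 and 6.42 in total RNA (0.86 ± 0.21), and bZIP44 differed by 0.92 ± 0.25. The lower one, AT5G50010, had 2.11, 2.2 and 2.21 in polysomal RNA, against 3.47, 3.46 and 3.58 in total RNA (-1.33 ± 0.27, adjusted p = 0.000414).

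Families were also formed from symbols by their letters, a grouping chosen after the data were seen. Of 53 families with at least 10 members at a mean level of 5 or more, 47 had a median above 0, and 37 with quantile normalization. Probe sets in general had medians of 0.20 to 0.29 at such levels, with 22.6 to 26.2% higher, over 4 ranges of level. The families named next were picked by their values. RAD genes, many of them of DNA repair, were higher in 9 of 12 cases (median 0.64), PUB genes of the U-box ubiquitin ligases in 6 of 11 (0.68), ATG genes of autophagy in 8 of 17 (0.55) and VPS genes of vacuolar sorting in 11 of 26 (0.46), with 0 lower in each. Cytochrome P450 genes (CYP) had the lowest median, -0.42, with 11 of 29 (37.9%) lower and 2 higher, and the protein disulfide isomerases (PDIL) followed at -0.40. All 29 CYP genes belong to the brighter probe sets, of which 9.39% were lower. Without a limit on level, the fasciclin-like arabinogalactan genes (FLA) stood lowest of 99 families of at least 15 members. Of 19, 14 were lower, 10 of them at least 2-fold, and 0 higher (median -1.32, and -1.08 with quantile normalization), with every one of the 19 differences below 0. They were dim, with a median total RNA level of 3.97. In the tenth of probe sets with a mean level of 3.31 to 4.01, 30.7% were lower, with a median of -0.36.

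Dormant seeds shared most of the calls. Across probe sets, the differences in non-dormant seeds at 6 h correlated with those in dormant seeds at 6 h at r = 0.816 (Spearman 0.753), with those under cordycepin at 0.866 (0.809) and with those at 24 h at 0.786 (0.721), given as a description over 27827 probe sets that are no independent replicates. No array is shared between these comparisons. Dormant seeds had 12.8% higher and 11.5% lower probe sets. Of those called in non-dormant seeds, 2283 higher (61.9% of the non-dormant and 63.9% of the dormant calls) and 2092 lower ones (64.6% and 65.4%) were called the same way, and 2 the opposite way.

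Only 1 probe set (0.00359%) differed between the seed kinds by the test of the difference itself. An unadjusted p under 0.05 was found for 1486 of 27827, where a share of 0.05 is expected if none differs. The 1 called was AT5G35120, a protein-coding locus with no symbol. In non-dormant seeds it had 3.83, 2.93 and 2.93 in polysomal RNA, against 1.44, 1.65 and 2.24 in total RNA, and in dormant seeds 1.67, 1.81 and 1.77 in polysomal RNA, against 2.92, 3.11 and 2.17 in total RNA. The directions were opposite, at levels in the lower part of each array, and the difference of differences was 2.44 ± 0.42 (adjusted p = 0.0426), and 8 of the 12 fits without 1 array called no probe set. EXT10, AGL51 and AGL78 fell in dormant seeds as well, by 4.72, 3.84 and 3.69, and GLTP1 and emb1187 rose there by 1.58 and 1.78.

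With cordycepin, 14.6% of probe sets were higher and 13.3% lower in polysomal than in total RNA. None passed the test of a difference from water (0.0% called by limma, 983 at an unadjusted p under 0.05, smallest adjusted p = 0.731). The mitochondrion-encoded median was -1.27 with cordycepin and -1.15 in water, and the proteasome median 0.41 and 0.50. How far cordycepin blocked transcription in these seeds was not measured here.

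**Figure D4:**
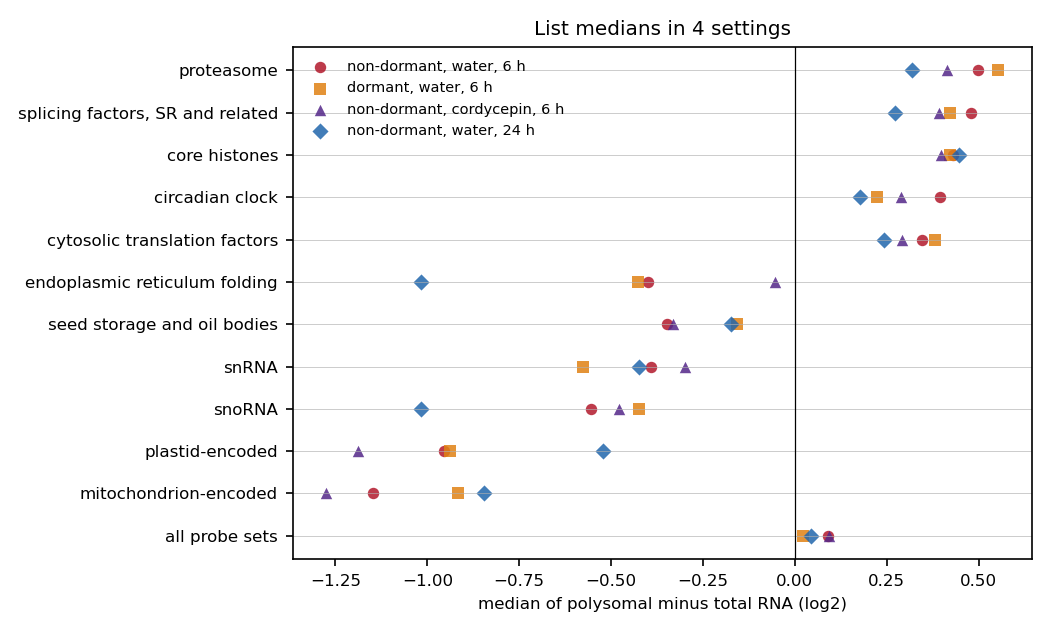
Median difference of polysomal minus total RNA (log2, horizontal axis) of 11 lists and of all probe sets, with 1 marker for each of 4 settings. The mitochondrion-encoded medians run from -1.27 to -0.85 and the proteasome medians from 0.32 to 0.55, and each of the 11 lists keeps its side of 0 in all 4.

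At 24 h fewer probe sets were called, 6.82% higher and 8.0% lower. The shared calls were 1223 higher (33.2% of the 6 h and 64.4% of the 24 h calls) and 1612 lower (49.8% and 72.4%), and 9 were opposite. The difference itself differed between the times for 47 probe sets (0.169%, with 1738 at an unadjusted p under 0.05). In 38 of them it was lower at 6 h and in 9 higher. Leaving out any 1 of the 12 arrays gave 12 to 37 such probe sets for this difference of polysomal minus total by time. It gave 37 and 36 without polysomal replicates 1 and 2 at 24 h, at most 29 without any other array, and the fewest without total replicate 2 at 24 h. Quantile normalization gave 16.

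These 38 were picked by a lower difference at 6 h, so the following values describe them and test nothing. Their median level at 6 h was 2.87 in polysomal and 4.56 in total RNA, and at 24 h 5.96 and 5.68. At 6 h the polysomal level of 16 of the 38 lay at or under the highest lower quartile of the 6 arrays, where no floor is known. Polysomal levels were higher at 24 h for all 38 and total levels for 30. At 6 h 33 were called lower in polysomal RNA, at 24 h 2 were called lower and 11 higher, and 24 were called lower in dormant seeds at 6 h.

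AGP31, an arabinogalactan protein of the cell wall, had 2.86, 2.87 and 3.37 in polysomal RNA at 6 h, against 6.04, 5.55 and 6.16 in total RNA. At 24 h it had 8.97, 8.75 and 8.69 in polysomal RNA, against 9.15, 9.36 and 8.92 in total RNA. The groups were far apart at 6 h and overlapped at 24 h, with differences of -2.88 ± 0.26 and -0.34 ± 0.26, which differed by -2.54 ± 0.36 (adjusted p = 0.000521). HCA2, a Dof transcription factor of vascular development, had 3.49, 3.14 and 3.45 in polysomal RNA at 6 h, against 5.24, 5.37 and 5.78 in total RNA. At 24 h it had 6.82, 6.33 and 6.75 in polysomal RNA, against 6.76, 6.48 and 6.53 in total RNA. Its difference of differences was -2.15 ± 0.35 (adjusted p = 0.00183), and both AGP31 and HCA2 kept this call in every alternative tried.

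GATA6, a GATA transcription factor, had 3.02, 3.40 and 1.76 in polysomal RNA at 6 h, against 5.17, 4.61 and 4.74 in total RNA. At 24 h the order was the other way, with 6.22, 6.57 and 6.46 in polysomal RNA, against 5.35, 5.43 and 5.69 in total RNA. Its difference of differences was the largest among named genes but less precise, at -3.04 ± 0.65 (adjusted p = 0.0352), and the call held in 1 of the 12 fits without 1 array. FLA2 and PME1, among the largest losses above, had differences at 24 h of -0.79 ± 0.30 and -0.76 ± 0.32, which differed from those at 6 h by -2.35 ± 0.43 and -2.17 ± 0.45. PMR6, a pectate lyase-like protein of the cell wall, gave -2.07 ± 0.45, the cyclin gene cycp3;1 gave -2.54 ± 0.55 and RTFL9, a small peptide gene, -2.07 ± 0.39. FLA2 was called in all 12 fits without 1 array, RTFL9 in 10, PME1 in 4, cycp3;1 in 1 and PMR6 in 0. With quantile normalization GATA6, FLA2, PME1, PMR6 and cycp3;1 lost the call, and RTFL9 lost it with only the arrays compared. Outside these 8, VAMP712, one of the largest gains at 6 h, had a difference of -0.34 ± 0.25 at 24 h, and the change of 1.71 ± 0.36 passed the test (adjusted p = 0.0297), in 4 of the 12 fits without 1 array and not with quantile normalization. The non-coding AT3G22121 passed it in all 12, with a change of -2.10.

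**Figure D5:**
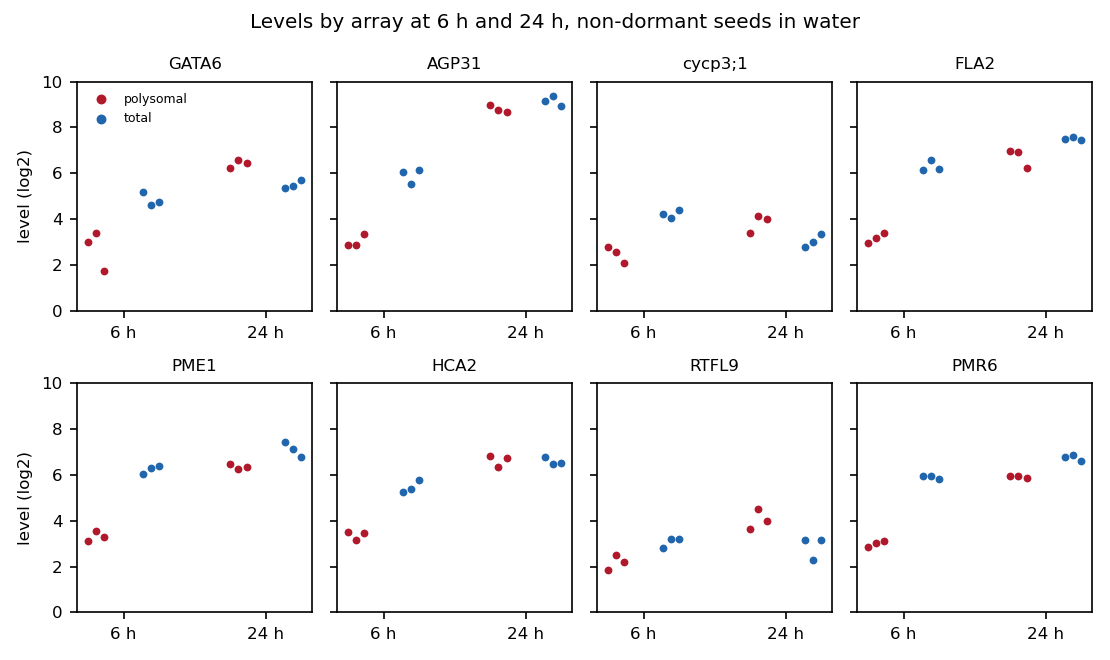
Level (log2) in each array for the 8 genes with a symbol whose difference of polysomal minus total RNA differed most between 6 h and 24 h in non-dormant seeds in water, with polysomal arrays in red to the left of total arrays in blue at each time (n = 3 each). At 6 h the polysomal arrays of all 8 lie between 1.76 and 3.55, under their total arrays.

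EXT10 and AGL51 did not share this course: their differences at 24 h were -5.07 and -4.77, beside -5.68 and -4.69 at 6 h. DOG1 had 3.24, 3.41 and 3.38 in polysomal RNA at 24 h, against 3.90, 4.44 and 3.98 in total RNA, a difference of -0.76 ± 0.27 (adjusted p = 0.049), and the change from 6 h did not pass the test (0.83 ± 0.38, adjusted p = 0.74). The median of the 9 endoplasmic reticulum folding genes was -1.02 at 24 h and that of the small nucleolar RNAs -1.02, against -0.40 and -0.55 at 6 h, with 0 members of either list passing the test between times.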

How the data were processed

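The authors deposited log2 expression values made with RMA (version not stated), per the submitters' processing notes. RMA subtracts background and makes arrays alike in distribution before probes are combined. RNA was biotin-labelled with a 3′ one-cycle kit, per the labels. Such kits prime at poly(A) tails, and their part in the values of RNAs without a tail was not tested. No source used here names the array type or how probe sets were defined. All 45 columns were matched to samples by label.

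No further scaling was applied. limma 3.58.1 (R 4.3.3) fitted 16 group means to the 45 arrays (29 residual degrees of freedom, 6.39 prior degrees of freedom, prior SD 0.294), with Benjamini-Hochberg adjustment over 27827 probe sets and a threshold of 0.05, so p-values rest on a spread shared by all groups. Contrasts were polysomal minus total RNA and its differences by dormancy, time and cordycepin. The fit was tested on simulated data. Summaries and plots used Python 3.11.15, pandas 2.3.3, numpy 2.4.6 and matplotlib 3.10.9.

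Loci were named through a TAIR10.1 table, in which 27241 matched and 10556 had a symbol. Genes named are the 15 largest called gains and the 15 largest called losses with a symbol, non-overlapping groups and a mean of at least 6 in the higher group; up to 4 called members of each list (2 where none was called); up to 8 called genes with a symbol per difference of differences; and DOG1. A further part of that rule, on short proteins, could not be applied. A few genes that meet the rule are not reported here. Other genes, the symbol families, the chromosome 2 block and the brighter probe sets were singled out after values were seen, and the members and lists were chosen with earlier results of these data known. HSD1 and PAI1 were not measured, and 1 heat shock locus and 4 ribosomal loci were dropped because the reference names them otherwise. Same-numbered polysomal and total arrays of non-dormant seeds in water at 6 h deviated from their group means with correlations of 0.04, -0.09 and 0.01. At 24 h these correlations were 0.03, 0.09 and 0.30. At 6 h in dormant seeds they were -0.003, -0.003 and -0.008, and with cordycepin 0.005, -3.9e-05 and 0.04. The numbers were not taken to pair the arrays. Alternatives were other normalizations, variance settings, array subsets, replicate blocks and leaving out each array.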

Additional observations from a re-analysis of the deposited data

Results flagged for a closer look

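In the 8 genes with the largest values among those called that have a symbol, the difference between polysomal and total RNA was not the same at 6 h and 24 h in non-dormant seeds, by the limma test of that difference. The values (6 h minus 24 h, log2) were -3.04 for GATA6, -2.54 for AGP31, -2.54 for cycp3;1, -2.35 for FLA2, -2.17 for PME1, -2.15 for HCA2, -2.07 for RTFL9 and -2.07 for PMR6. Of these, 5 lost the call with quantile normalization (GATA6, cycp3;1, FLA2, PME1 and PMR6), and GATA6, cycp3;1, PME1 and PMR6 kept it in 1, 1, 4 and 0 of the 12 fits without 1 array. Of the other genes named, VAMP712 (1.71, lost with quantile normalization) and AT3G22121 (-2.10) passed the same test. At AT5G35120 the difference was not the same in non-dormant and dormant seeds at 6 h, by 2.44. No group held enough arrays for a check of single arrays that lie apart.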

How the results depend on the processing

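For polysomal versus total RNA, non-dormant water 6 h, the 6926 called probe sets (3686 higher, 3240 lower) became 5048 to 5723 without 1 of the 6 arrays (2477 to 3142 higher, 2571 to 2768 lower). Those at least 2-fold higher became 648 to 846 and those at least 2-fold lower 1908 to 2094. Fitting only the arrays compared gave 2284 higher. The replicate block with only the arrays compared gave 4306, with 1673 higher, and the replicate block over all arrays 7498. The replicate numbers were not taken to pair the arrays. With only the brighter probe sets tested, the counts for polysomal versus total RNA, non-dormant water 6 h, lower by at least 2-fold, were 706, within 1450 lower in all. For the difference of polysomal minus total by dormancy and by time: calls by time (47, with 9 higher and 38 lower) were 162 with array weights (32 and 130), 16 with quantile normalization (5 and 11), and had 1 higher with only the arrays compared and 3 with the replicate block there; without 1 array they were 12 to 37 (0 to 7 higher, 12 to 31 lower). The 1 call by dormancy was 0 with cyclic loess, with only the arrays compared, with the replicate block there and among the brighter probe sets, and 0 to 2 without 1 array. No call by cordycepin was made under any of these. Of 153 named and called genes, 114 were called in all 6 fits without 1 array, 131 with quantile normalization, 134 with cyclic loess and 136 with only the arrays compared, and none changed sign. List medians near 0 changed sign with quantile normalization for photosynthesis (0.02), dormancy regulators (-0.05), rapid stress genes (-0.05) and seed coat markers (0.05), and with cyclic loess for abscisic acid genes (-0.01), dormancy regulators (-0.06), rapid stress genes (-0.09) and seed coat markers (0.03). The causes were not tested. The files give no detection calls, so dim values, such as the polysomal levels of the largest losses, have no stated floor.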
